A study of Mus musculus with 24 samples.

Results

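Atg16l1, which works in the conjugation step of autophagy, and Irgm1, an interferon-inducible GTPase, were described in the terminal ileum of mice that had or had not received a macrolide antibiotic early in life. The genes were chosen by name from a set of 6 autophagy-related genes (Atg5, Atg7, Atg10, Atg12, Atg16l1 and Irgm1). Atg16l1 and Irgm1 are the 2 of these 6 among the 547 genes of the table. Atg5, Atg7, Atg10 and Atg12 were not analysed here.

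In autophagy a cell encloses part of its own cytoplasm, or a microbe, in a double membrane and delivers it to the lysosome. Atg16l1 is the scaffold that binds the Atg12–Atg5 conjugate and directs the lipidation of LC3 at the growing membrane, and in the ileum it is known for its part in granule secretion by Paneth cells. Irgm1 belongs to the immunity-related GTPases, which interferons induce and which act at vacuoles that hold intracellular microbes and at mitochondria. Irgm1 is also known to affect autophagy and the survival of T cells during interferon responses.

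All 24 mice were C57BL/6 mice, and ileal RNA was taken at week 7. The 7 Control mice (4 male, 3 female) were given no antibiotic. The 7 PAT1 mice (4 male, 3 female) had a single pulsed antibiotic treatment (PAT) course of tylosin through the milk of the dam, and the 10 PAT3 mice (4 male, 6 female) had that course and 2 more after weaning. By the study's methods, treatment was assigned by litter and littermates were caged by sex and treatment, so litter and cage cannot be told apart from treatment. The nCounter assay counts a reporter probe for each gene without amplification, and a value below is the log2 of a count divided by the sample's size factor. The total recovered count per sample ran from 171671 to 782392 with a median of 580162. PAT1 replicates 1 and 3 and PAT3 replicate 7 were the 3 samples under 300000.

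Irgm1 lies on chromosome 11 from 48865245 to 48871420, and Atg16l1 on chromosome 1 from 87756007 to 87792428, both protein-coding genes in the RefSeq annotation of GRCm38.p6. The build behind the probes is not given in the sources used here. The promoter table matched 1 of the 2 genes, Irgm1. The 250 bases before its start are shown because the interferon genes of the same table are set beside Irgm1 below. They lie at chr11:48871421-48871670 on the minus strand, are written 5′ to 3′, and carry in capitals both overlapping matches of the interferon-stimulated response element core (GAAA, any 2 bases, then GAAA).

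Irgm1: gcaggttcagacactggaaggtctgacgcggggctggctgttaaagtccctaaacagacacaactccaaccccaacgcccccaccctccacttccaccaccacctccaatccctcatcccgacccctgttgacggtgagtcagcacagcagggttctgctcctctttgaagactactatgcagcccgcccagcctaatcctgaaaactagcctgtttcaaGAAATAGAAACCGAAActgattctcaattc

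The matches GAAATAGAAA and GAAACCGAAA begin 30 and 24 bases before the start, respectively, and share 4 bases. Searched on both strands, the same letters occurred in 3.44% of 32851 RefSeq promoter windows, which also hold some bases after the start. The letters TTCNNNGAA, the core of the gamma-activated site, were not in the Irgm1 window and occurred in 8.30% of all promoters. A match of letters is a description of the sequence and not a measured binding site.

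Irgm1 was lower in the ileum of PAT3 mice than in Control mice. The Control mice had log2 values of 10.53, 10.58, 10.60, 10.44, 10.39, 10.77 and 10.58. The 10 PAT3 mice ran from 9.64 to 10.31 with a median of 10.05. All 10 PAT3 values were below the lowest Control value, so the groups did not overlap. Of all 547 genes, 7.31% had every PAT3 value below every Control value, and 9.32% did not overlap in either direction. The means were 10.55 ± 0.12 (SD, n = 7) in Control and 10.03 ± 0.22 (SD, n = 10) in PAT3. The log2 fold change was -0.52 (SE 0.17, 95% CI -0.87 to -0.18), which is 0.697 of the Control level. Irgm1 passed the test (limma, adjusted p = 0.0198), the 1 of the 2 genes called in this comparison, beside 31.8% of all 547 genes called in either direction and 17.9% called lower. By p it was the 130th gene of 547, and the 111th from the most negative fold change. The result was much the same without the 3 samples under 300000 counts (log2 fold change -0.48, adjusted p = 0.0216).

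The size of the Irgm1 difference depended on how samples were scaled. The median gene of a sample was on average 0.19 lower on the log2 scale in PAT3 than in Control samples under the authors' size factors, although the median of the genes' own fold changes was 0.03. When every sample was centred on its median gene instead, the log2 fold change of Irgm1 was -0.33 and the call was lost (adjusted p = 0.144). The median fold change over all genes was then 0.22. Under quantile normalization the log2 fold change of Irgm1 was -0.64 and the call was kept (adjusted p = 0.00657), with a median of 0.09 over all genes.

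In PAT1 mice Irgm1 was spread over a wider range and did not pass the test. Its log2 values were 10.74, 11.28, 10.001, 9.95, 9.74, 10.27 and 9.90, with a mean of 10.27 ± 0.55 (SD, n = 7). Replicates 1 and 2, both male, were above the Control mean, and replicate 2 was above every Control mouse. The other 5 PAT1 mice were all below the lowest Control value. The log2 fold change against Control was -0.28 (SE 0.18, 95% CI -0.66 to 0.09, limma adjusted p = 0.323), where 18.5% of all genes were called and 11.2% called lower. Without PAT1 replicate 2, the mouse with the highest value, it was -0.45 and passed the test (limma adjusted p = 0.0347). That was the only 1 of 24 fits leaving out 1 mouse to pass, and 2 of all 38 alternatives passed. After centring each sample on its median gene the log2 fold change was -0.14 (limma adjusted p = 0.652). PAT3 against PAT1 gave -0.24 (95% CI -0.58 to 0.11, adjusted p = 0.374), in a comparison that called 4.20% of genes, so no difference between 1 and 3 courses was detected for Irgm1. A single test among all 3 groups called Irgm1 narrowly (limma adjusted p = 0.0491) and lost it in 23 of 37 alternative settings, 18 of them leaving out 1 mouse, where 34.6% of all genes were called.

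The spread of Irgm1 itself differed in its place among the genes. In Control mice its SD of 0.12 was among the smaller ones, with 4.20% of genes having a smaller SD and a median SD of 0.31 over all genes. In PAT1 mice 66.2% of genes had a smaller SD than Irgm1, and in PAT3 mice 10.4% did. Counting error alone was near 2.35%, 3.01% and 2.96% of the count in Control, PAT1 and PAT3 at the median of 1815, 1104 and 1144 Irgm1 counts.

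**Figure D1:**
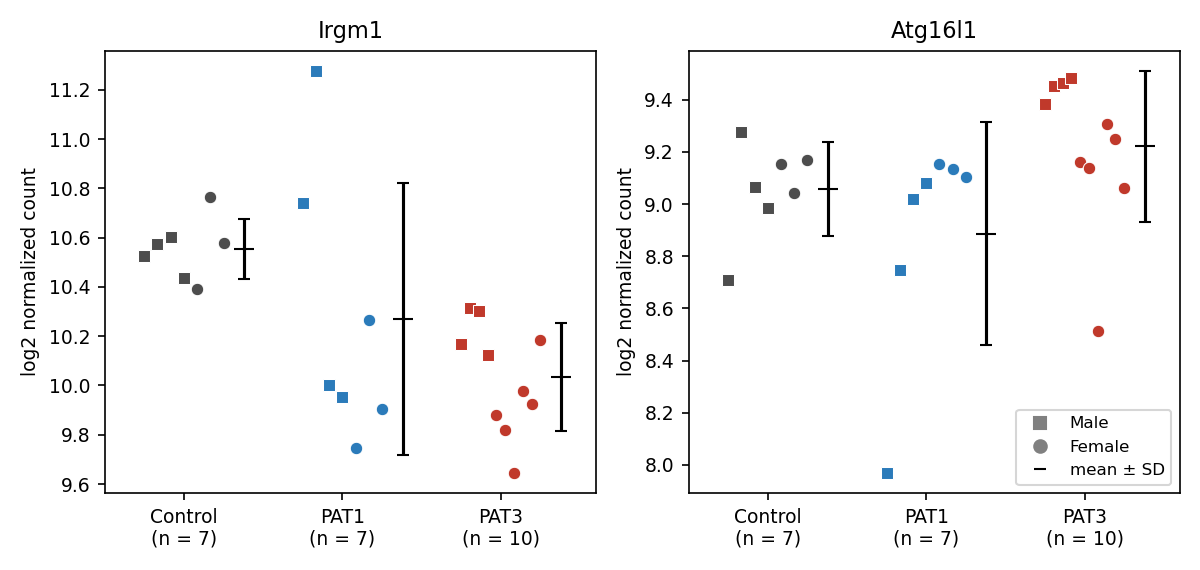
Log2 normalized count of Irgm1 (left) and Atg16l1 (right) in each mouse by group, with squares for males, circles for females and the black bar for mean ± SD. All 10 PAT3 mice lie below the lowest Control mouse for Irgm1 (10.39), whereas the groups overlap for Atg16l1.

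Atg16l1 did not pass the test in any comparison of groups. The Control mice had log2 values of 8.71, 9.28, 9.07, 8.99, 9.16, 9.04 and 9.17. The PAT1 mice had 7.97, 8.75, 9.02, 9.08, 9.16, 9.13 and 9.10, and the PAT3 mice ran from 8.51 to 9.48 with a median of 9.28. The 3 groups overlapped, although 5 of 10 PAT3 mice were above the highest Control mouse and 9 of 10 above the Control mean. Control mice averaged 9.06 ± 0.18 (SD, n = 7). The average was 8.89 ± 0.43 (SD, n = 7) after 1 course and 9.22 ± 0.29 (SD, n = 10) after 3 courses. The log2 fold change was -0.17 (95% CI -0.53 to 0.18, limma adjusted p = 0.543) in PAT1 and 0.16 (95% CI -0.16 to 0.49, limma adjusted p = 0.450) in PAT3 against Control. PAT3 was 0.33 above PAT1 (95% CI 0.01 to 0.66), with an unadjusted limma p of 0.0460 and an adjusted p of 0.165. Without PAT3 replicate 7, the lowest PAT3 mouse, this difference was 0.41 and passed (limma adjusted p = 0.0482). That was the only 1 of 24 fits leaving out 1 mouse to pass, and 2 of all 38 alternatives passed. With the size factor as a covariate the difference was 0.15 (limma adjusted p = 0.481). The counts behind Atg16l1 were lower than those of Irgm1, with medians of 625, 571 and 716 in Control, PAT1 and PAT3 and counting errors of 4.0%, 4.18% and 3.74%.

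Atg16l1 moved with the depth of the sample. Its log2 value rose with the log2 total count over the 24 mice (Pearson r = 0.81, permutation p = 0.00011, adjusted over 8 relations 0.00088; Spearman rho = 0.51, permutation p = 0.0116, adjusted 0.0927). Without the 2 samples farthest from the median depth r was 0.47. Taken by group, r was 0.72 for the Control, 0.85 for the PAT1 and 0.89 for the PAT3 mice, and without the 2 farthest samples of each group -0.04, 0.77 and 0.56. The permutation p of the within-group r, exact for the groups of 7, was 0.0835, 0.0276 and 0.00467, or 0.134, 0.0552 and 0.0187 after adjustment, so r passed after adjustment in PAT3. Spearman rho was 0.46, 0.64 and 0.59 in the same order, with a lowest adjusted permutation p of 0.219. By r with depth Atg16l1 ranked 7th of 547 genes, where the median r was near 0. The lowest values of PAT1 and PAT3, 7.97 and 8.51, were those of PAT1 replicate 1 and PAT3 replicate 7, the samples with 171671 and 265500 counts. The third sample under 300000 counts, PAT1 replicate 3 with 294135, had 9.02, close to the Control mean of 9.06. Without the 3 samples under 300000 counts the log2 fold change was -0.01 in PAT1 (limma adjusted p = 0.954) and 0.24 in PAT3 (limma adjusted p = 0.0588). With the size factor as a covariate it was 0.06 in PAT1 (limma adjusted p = 0.747) and 0.21 in PAT3 (limma adjusted p = 0.114). The part of depth in the Atg16l1 values was not tested beyond these fits.

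For Irgm1 the relation with depth over the 24 mice was r = -0.10 (permutation p = 0.655; Spearman rho = 0.03, permutation p = 0.895). Taken by group, r was -0.25 for the Control, -0.52 for the PAT1 and 0.67 for the PAT3 mice, and none passed after adjustment (lowest adjusted permutation p = 0.0552). Without the 2 samples of each group farthest from its median depth, r was -0.17, -0.81 and 0.07 in the same order, given without a test. Spearman rho was -0.25, -0.57 and 0.59, with a lowest adjusted permutation p of 0.219. With the size factor as a covariate, Irgm1 still passed the test in PAT3 against Control (limma adjusted p = 0.0116).

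**Figure D2:**
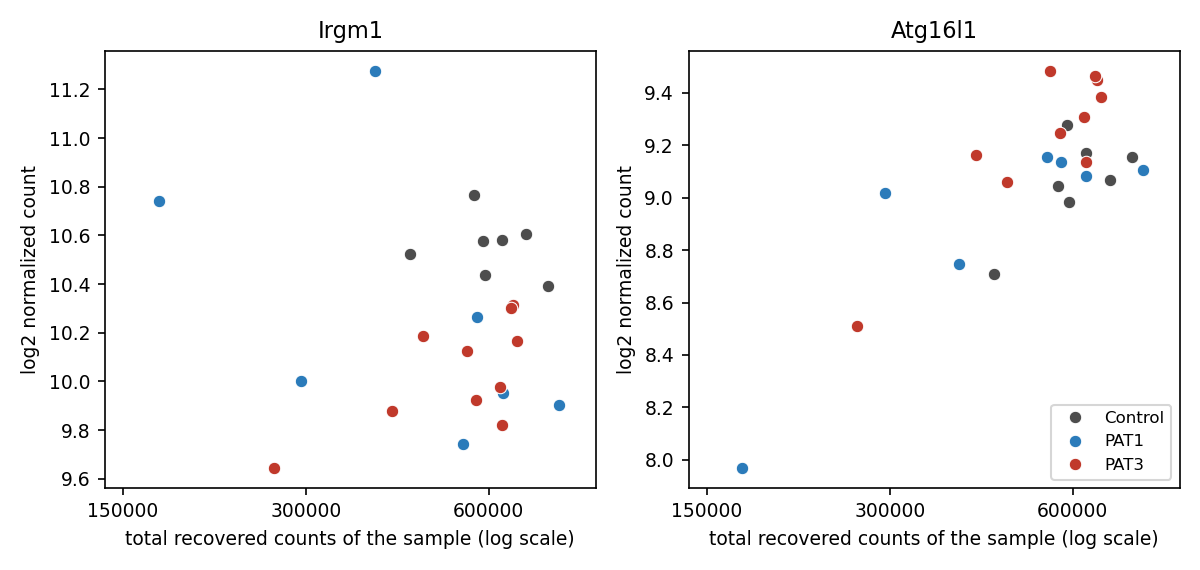
Log2 normalized count of Irgm1 (left) and Atg16l1 (right) against the total recovered count of each sample on a log scale, coloured by group. Atg16l1 is lowest in the 2 samples with the fewest counts (7.97 and 8.51) but at 9.02 in the third sample under 300000 counts, with r = 0.81 over 24 mice, against r = -0.10 for Irgm1.

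Subtracting Atg16l1 from Irgm1 within each mouse gives a value that no choice of size factor can alter. Because the genes have different probes, this difference is compared between mice only and is given as a description. It was 1.496 ± 0.21 (SD, n = 7) in Control, with a range of 1.24 to 1.82. In the 10 PAT3 mice it ran from 0.64 to 1.13 (0.81 ± 0.18, SD), all below the lowest Control mouse. In PAT1 it was 2.77 and 2.53 in replicates 1 and 2, above every Control mouse, and 0.59 to 1.13 in the other 5, below every Control mouse. Both genes enter this difference, Irgm1 with lower and Atg16l1 with higher values in most PAT3 mice. PAT1 replicate 1, with 171671 counts, had the lowest Atg16l1 value, 7.97, while its Irgm1 value of 10.74 was within the Control range. Atg16l1 rose with depth (Pearson r = 0.81), and the part of depth in this difference was not tested. The share of other gene pairs that separate in this way was not computed.

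**Figure D3:**
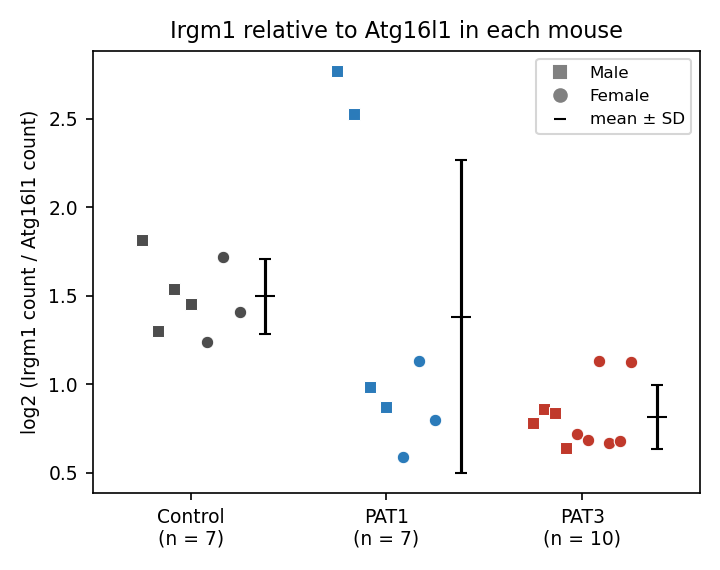
Log2 ratio of the Irgm1 count to the Atg16l1 count in each mouse by group, with squares for males, circles for females and the black bar for mean ± SD. All 10 PAT3 mice (0.64 to 1.13) are below the Control mice (1.24 to 1.82), and PAT1 splits into 2 mice above and 5 below the Control range. The highest PAT1 value, 2.77, is that of the sample with the fewest counts.

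Neither gene passed the test for sex. Irgm1 was 0.27 lower on the log2 scale in females than in males (SE 0.13, limma adjusted p = 0.426), in a comparison that called 0.366% of genes. Its PAT3 means were 10.23 ± 0.10 (SD, n = 4) in males and 9.91 ± 0.18 (SD, n = 6) in females, and its PAT1 means 10.49 ± 0.63 (SD, n = 4) and 9.97 ± 0.27 (SD, n = 3). In both sexes every PAT3 mouse was below the lowest Control mouse. Fitted in 1 sex at a time, the PAT3 fold change of Irgm1 was -0.67 in females (limma adjusted p = 0.0298) and -0.31 in males (limma adjusted p = 0.377). The difference between the sexes in that fold change was -0.37 (95% CI -1.01 to 0.28, limma adjusted p = 0.878), so a sex difference was not shown.

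For Atg16l1 the 4 PAT3 males were tightly grouped at 9.45 ± 0.04 (SD), all above the highest Control mouse. The share of all genes that separate in this way in PAT3 males was not computed. The 6 PAT3 females were at 9.07 ± 0.29 (SD). The test of treatment by sex gave an unadjusted limma p of 0.0333 and an adjusted p of 0.228, where 0.183% of genes were called. In males alone PAT3 was 0.74 above PAT1 (limma adjusted p = 0.0369), in a setting that called 66 of 547 genes higher and 63 lower. The PAT1 males include the sample with the fewest counts.

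The other autophagy genes could be described only through regulators. A list of 37 further autophagy genes (Becn1, Ulk1, Sqstm1 and others) was not analysed here, and 11 of 17 genes of a list of immune regulators known to affect autophagy were in the table. In PAT3 against Control 2 of the 11 rose, 2 fell and 7 did not pass, beside 13.9% of all genes called higher and 17.9% called lower. Tlr2, a receptor for bacterial lipoproteins, fell by 1.004 on the log2 scale, and Tmem173 (STING), the adaptor of cytosolic DNA sensing, fell by 0.65. Bcl2, which binds Beclin 1 and restrains autophagy, rose by 0.68, and Trp53 rose by 0.54. In PAT1 4 of the 11 fell, namely Tlr2, Nod2, Tlr4 and Tmem173 (log2 fold changes of -1.18, -0.63, -0.59 and -0.57), and none rose. Of all genes 11.2% were called lower and 7.31% higher in PAT1. The median fold change of the 11 was 0.06 in PAT1 and 0.04 in PAT3, near the medians of 0.01 and 0.03 over all genes. Nod2, an intracellular sensor of bacterial peptidoglycan that is known to recruit Atg16l1, was at -0.28 in PAT3 (limma adjusted p = 0.115).

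Interferon gamma signals through its receptor and the kinases Jak1 and Jak2 and induces Irf1 and, as a brake, Socs1. Of the genes of this axis 8 are described. In PAT3 3 of the 8 fell and 2 rose, beside 17.9% of all genes called lower and 13.9% called higher. Socs1 fell by 0.84 and Irf1 by 0.63 on the log2 scale, whereas the receptor chains Ifngr2 and Ifngr1 rose by 0.61 and 0.58. In PAT1 2 fell and 2 rose, beside 11.2% and 7.31% of all genes. The median fold change of the 8 was -0.05 in PAT1 and -0.14 in PAT3. Ifng itself was near the lower end of the assay, with a median of 10 counts in Control mice, and did not pass the test in either comparison with Control.

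Of 26 genes on a list of interferon-induced genes, 13 were in the table, and 7 fell and 1 rose in each of PAT1 and PAT3. Over all genes 11.2% were called lower and 7.31% higher in PAT1, and 17.9% and 13.9% in PAT3. The PAT3 falls were steepest for Nos2, the inducible nitric oxide synthase (log2 fold change -3.05), the chemokine Cxcl9 (-1.95), Ciita, the master regulator of MHC class II (-1.67), and Cd274, the checkpoint ligand PD-L1 (-1.46). The Irgm1 fold change of -0.52 was smaller in size than any of these, and the differences between genes were not tested. The median of the 13 was -0.70 in PAT1 and -0.96 in PAT3. The fold changes of these genes and of Irgm1 share the Control mice and are not independent of one another.

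No gene of the type I interferon axis was called lower. Of 8 of 10 genes of this axis in the table, 4 rose and none fell in PAT3 (13.9% of all genes were called higher), namely Ifna1 by 0.92, the transcription factor Irf3 by 0.48, and the receptor chains Ifnar1 by 0.35 and Ifnar2 by 0.28. In PAT1 2 rose, namely Ifna1 by 1.19 and Irf7 by 1.38, where 7.31% of all genes were called higher. Ifna1 was near the lower end of the assay, with medians of 7, 8 and 9 counts in Control, PAT1 and PAT3, and background subtraction is not stated for these values. The median of the 8 was 0.16 in PAT1 and 0.33 in PAT3.

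**Figure D4:**
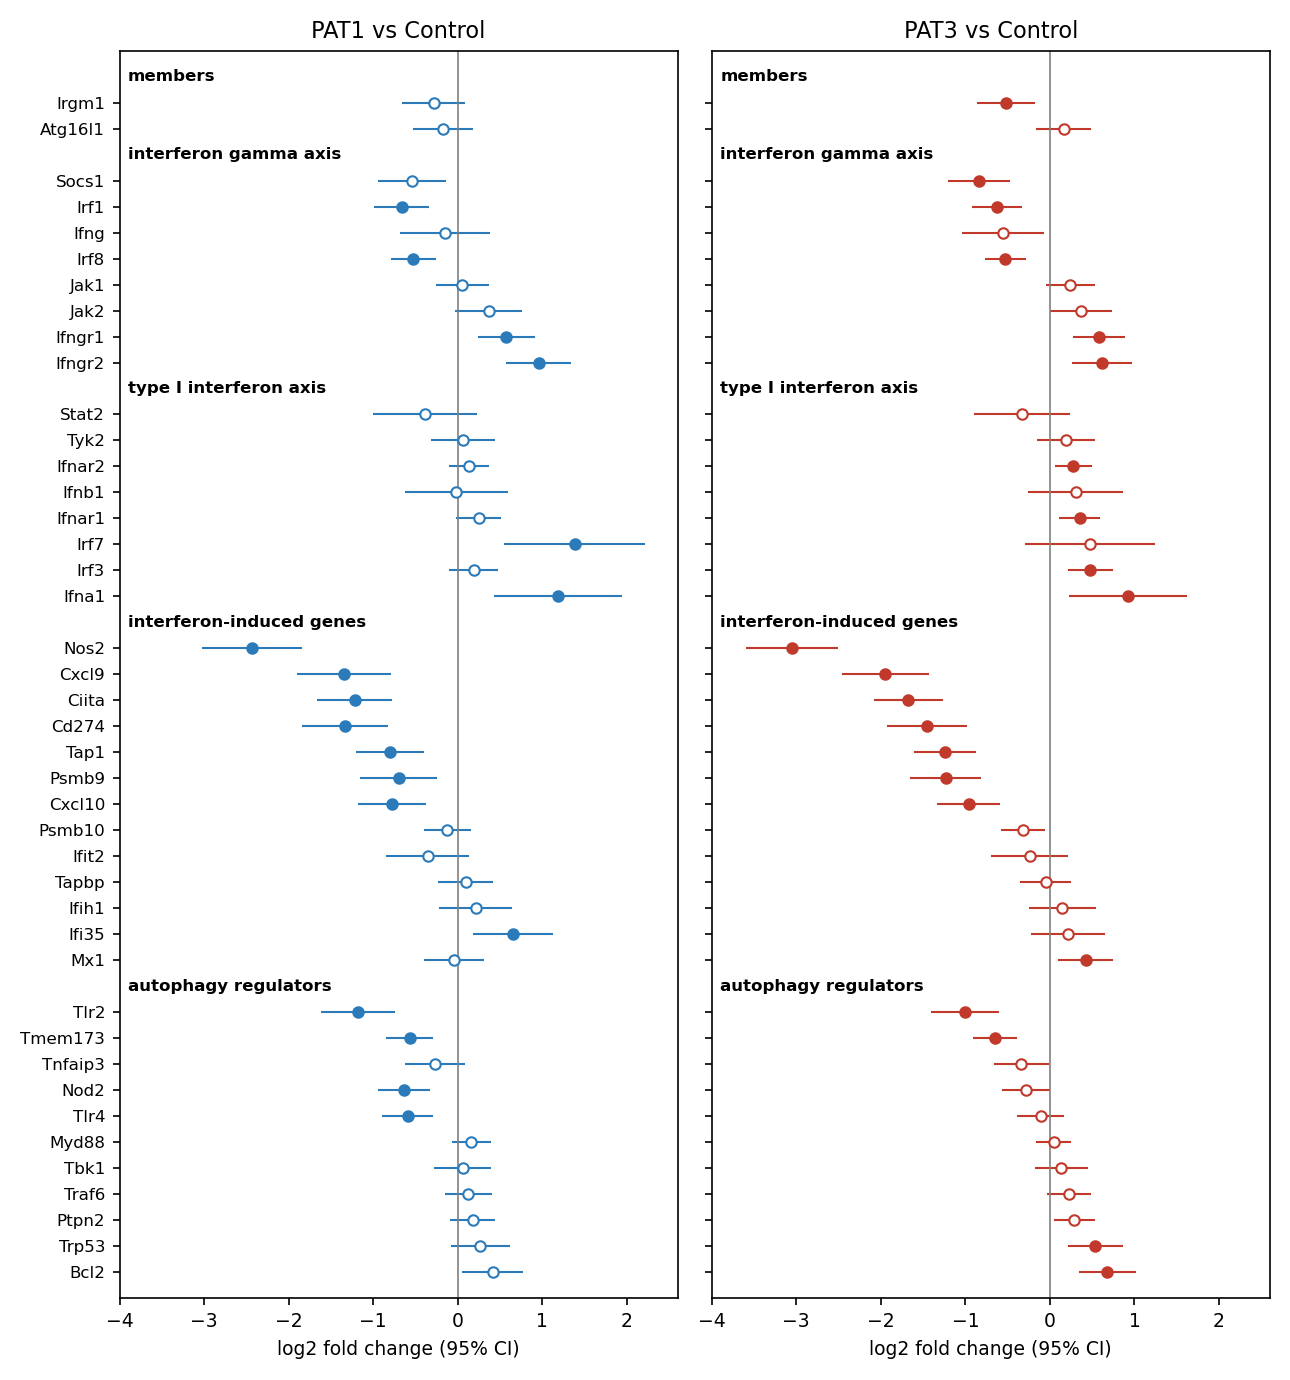
Log2 fold change against Control with its 95% confidence interval for Irgm1, Atg16l1 and the genes of the interferon and autophagy-regulator lists, in PAT1 (left) and PAT3 (right), with filled points for an adjusted p under 0.05. Irgm1 in PAT3 (-0.52) lies between zero and the stronger falls of Nos2 (-3.05), Cxcl9 (-1.95) and Ciita (-1.67).

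The genes whose values followed Irgm1 most closely from mouse to mouse, after the group means were subtracted, were found by Pearson r over 24 mice and 546 genes. They were Ifit2 (Pearson r = 0.77), Bst2 (r = 0.65) and Tap1 (r = 0.64), given as a description with no test. For each of these genes r was also taken without the 2 mice farthest from that gene's own median after the same subtraction. It was then 0.56, 0.19 and 0.49, so the likeness of Bst2 rested largely on the 2 mice farthest in Bst2. The likeness also differed between groups. Among PAT1 mice alone, Ifit2, Bst2 and Tap1 had r of 0.88, 0.93 and 0.82 with Irgm1. PAT3 mice gave 0.81, -0.58 and 0.51 in the same order, so Bst2 ran the other way there. Control mice gave 0.07, 0.46 and 0.55, so Ifit2 hardly followed Irgm1 among them. These values by group were not tested. PAT1 replicates 1 and 2 had Bst2 log2 values of 10.50 and 10.63, above the other PAT1 mice (8.49 to 8.75) and all Control mice (8.68 to 9.21). Their Ifit2 values of 7.79 and 8.14 were above the other PAT1 mice (6.19 to 6.91) too. Tap1, the peptide transporter of MHC class I loading, was at 9.39 and 9.99 in these mice, above the other 5 PAT1 mice (8.61 to 9.22). Of the 3 genes, Tap1 fell in PAT3 against Control (log2 fold change -1.24, limma adjusted p = 7.87e-06).

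**Figure D5:**
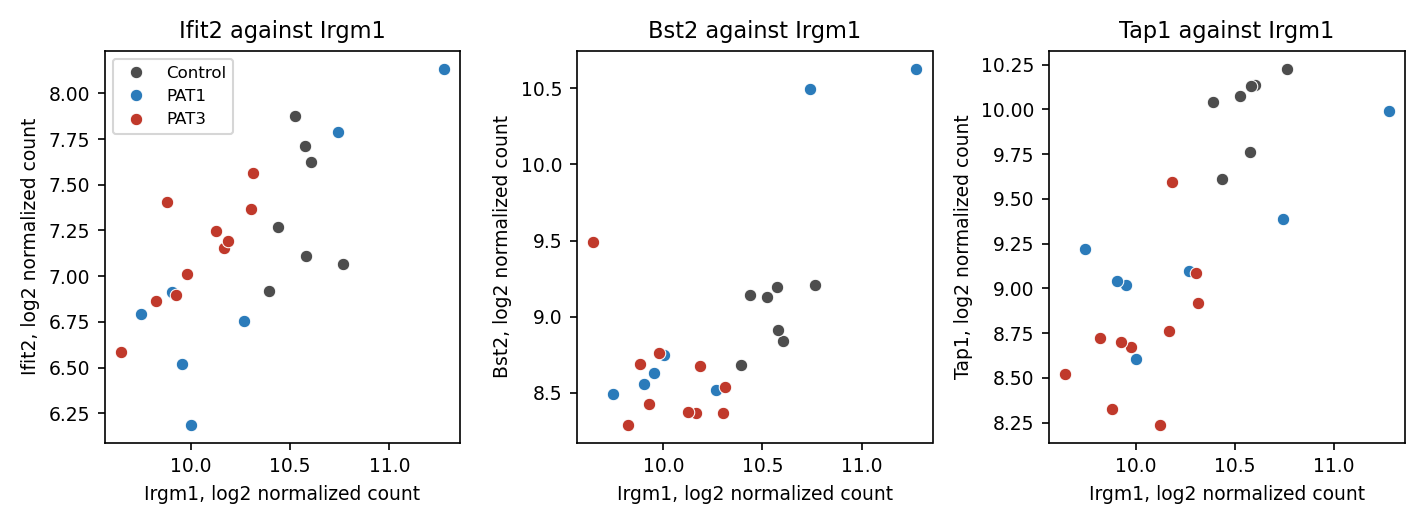
Log2 normalized counts of Ifit2, Bst2 and Tap1 against Irgm1 in each mouse, coloured by group. The 2 PAT1 mice with the highest Irgm1 (10.74 and 11.28) also have the highest Ifit2 and Bst2 of their group, and the high Bst2 values of these 2 mice (10.50 and 10.63) stand apart from the rest.

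For Atg16l1 the most similar genes were Ikbkb, a kinase of the NF-κB pathway, Ptk2, the focal adhesion kinase, and Casp2, an initiator caspase, each with r = 0.90. Without the 2 mice farthest from the median of Ikbkb, Ptk2 or Casp2, chosen for each gene separately, r was 0.69, 0.80 and 0.69. Each of these genes also rose with depth, with r of 0.80, 0.65 and 0.82 against the log2 total count. The correlation between Irgm1 and Atg16l1 themselves was -0.20.

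Markers of cell types moved with the groups as well. Among T cell markers, 7 of 8 in the table (of 10 listed) fell in PAT3, where 17.9% of all genes were called lower, and their summed level on the log2 scale ran from 9.60 to 9.95 in Control, 8.94 to 9.79 in PAT1 and 8.30 to 9.23 in PAT3. Among cytotoxic cell markers, 5 of 6 in the table (of 8 listed) fell in PAT3, with sums of 10.06 to 11.38, 8.37 to 10.60 and 7.75 to 10.04. In PAT1 2 of the 8 T cell markers and 3 of the 6 cytotoxic markers fell, where 11.2% of all genes were called lower. PAT1 replicates 1 and 2 had the 2 highest cytotoxic sums of their group, 10.14 and 10.60, and the 2 lowest enterocyte sums, 14.93 and 15.63. Counted from the highest PAT1 mouse, they ranked 3 and 2 for T cell, 4 and 2 for B cell and 1 and 3 for myeloid sums. The B cell sum (7 of 8 markers) ran from 7.90 to 9.68, 7.26 to 12.07 and 7.16 to 8.46, the myeloid sum (8 of 11) from 11.36 to 11.91, 11.19 to 11.97 and 11.18 to 11.83, and the sum of the enterocyte markers (6 of 6) from 15.17 to 16.11, 14.93 to 16.10 and 14.47 to 16.09. The enterocyte sum holds changes in both directions: in PAT3 Abcb1a rose by 1.01 and Ccl25 by 0.81 while Ceacam1, with a median of 35086 counts in Control the largest part of the sum, fell by 1.05. In PAT1 2 of the 6 rose, Btnl1 by 0.94 and Ccl25 by 1.13, and Ceacam1 fell by 1.26. Of the B cell markers Cd79b fell by 1.26 in PAT3 and none passed in PAT1, and of the myeloid markers Itgam fell by 0.68 in PAT3 and by 0.92 in PAT1. No marker in the table had a median of 0 counts in any group. The lowest marker median in Control ileum was 8 counts for B cell, 9 for cytotoxic and 11 for T cell markers. It was 112 for myeloid and 454 for enterocyte markers. In PAT3 the lowest median was 5.5 for B cell, 7 for cytotoxic and 7.5 for T cell markers, near the lower end of the assay. In bulk tissue fewer cells of a type and less RNA per cell cannot be told apart, and the part of these cell types in the Irgm1 result was not tested.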

How the data were processed

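Ileal RNA of 24 mice was measured on the NanoString nCounter GX mouse immunology panel. The deposited values are log2 values: per the study's methods the authors normalized counts with DESeq2 and took log2, and the version, background subtraction and probe build are not given in the sources used here. Labels and methods name different RNA kits, and the study's text gives PAT1 and PAT3 sizes that differ by 1 mouse from the labels, whose groups were used. Whole counts were recovered from the log2 values, which gave depth. Of 13128 values 19 were listed at 0 and taken as 0 counts, and 100% of the others were within 0.01 counts of a whole number. No 2 samples agreed within sampling noise (276 pairs, lowest chi-square per degree of freedom 4.00).

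All 547 genes were fitted with limma 3.58.1 (R 4.3.3) over all 24 samples, with no covariates or filter and Benjamini-Hochberg adjustment over 547 genes at a threshold of 0.05. The fit was tested on simulated data. P-values measure the spread between mice, and mice of a litter may not be independent. Counting errors cover counting only. A total of 38 alternatives was run. Correlations with depth were tested by permutation (exact within groups of 7, otherwise 100000 draws). Genes were named by rule: both members, at most 4 called genes of a list with the largest PAT3 change, and the 3 genes most like each member; others, such as Nod2 in PAT3, Tlr4, Irf7, Ifng and single cell type markers, were named after their values were seen. The members and lists were chosen with earlier results of these data known. A gene of the interferon gamma list is not reported here, and that list's counts and median leave it out. Replicate numbers follow accession order.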

Additional observations from a re-analysis of the deposited data

Results flagged for a closer look

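The Atg16l1 log2 value of PAT1 replicate 1, 7.97, was far below the other 6 PAT1 mice: its gap to the next was 0.655 of the group's range, above Dixon's critical value for 7 samples. The Atg16l1 log2 value of PAT3 replicate 7, 8.51, was likewise far below the other 9, with a gap of 0.564 of the range, above the critical value for 10 samples. Both are samples of low depth, with 171671 and 265500 counts. Chance alone marks about 1 in 20 groups in this way, and 9 groups were examined.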

How the results depend on the processing

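The lower Irgm1 in PAT3 kept its direction in all 38 alternatives (log2 fold change -0.674 to -0.309) and its call in 36; it was lost after centring each sample on its median (-0.329, adjusted p = 0.144) and in males only (-0.309, adjusted p = 0.377). Leaving out 1 mouse at a time gave -0.552 to -0.477. The methods' test (aov and TukeyHSD) gave an adjusted p of 0.0496. In PAT1 Irgm1 passed with sample weights (-0.436, adjusted p = 0.0407) and without PAT1 replicate 2 (range without 1 mouse -0.453 to -0.197). The test among all 3 groups called Irgm1 by a narrow margin (adjusted p = 0.0491, with 34.6% of genes called) and lost it in 23 of 37 alternatives, namely 18 of 24 that left out 1 mouse (0.00994 to 0.0941 over all 24), median centring (0.281), sex as a covariate (0.062), males only (0.517), females only (0.0734) and without the 3 samples under 300000 counts (0.0549), a setting chosen after seeing the data.

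Atg16l1 in PAT3 passed with sample weights (0.230, adjusted p = 0.0478; among groups 0.0429) and turned in females only (-0.052). In PAT1 it turned with the size factor as a covariate (0.064) and in females only (0.008). PAT3 against PAT1 passed in males only (0.742) and without PAT3 replicate 7 (0.413; range without 1 mouse 0.181 to 0.413) and turned in females only (-0.060). The female against male difference of 0.01 turned with voom on recovered counts (-0.005), quantile normalization (-0.036), the size factor (-0.065), sample weights (-0.065) and without the samples under 300000 counts (-0.025), and ran from -0.076 to 0.061 without 1 mouse.

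Of the 2 genes, the test among groups called 0 after median centring, with sex as a covariate, in males only, in females only and without the samples under 300000 counts, 2 with sample weights, and 0 to 1 without 1 mouse. PAT1 called 1 with sample weights and 0 to 1 without 1 mouse. PAT3 called 0 after median centring and in males only and 2 with sample weights. PAT3 against PAT1 called 1 in males only and 0 to 1 without 1 mouse.

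Over all genes, sample weights called 309 among groups (189 in the main test), 287 in PAT3 (174) and 93 in PAT3 against PAT1 (23). Females only called 37 among groups, 23 in PAT1 (101), 57 in PAT3 and 0 in PAT3 against PAT1. Males only called 57 in PAT1 and 129 in PAT3 against PAT1. PAT3 against PAT1 also gave 0 with the methods' test, the size factor and only the 2 groups of a contrast, 47 with voom, 57 after median centring, 48 with a filter on low values, and 0 to 102 without 1 mouse. Median centring moved the PAT3 calls from 76 higher and 98 lower to 152 and 78, and the PAT1 calls from 40 and 61 to 57 and 46; quantile normalization gave 110 and 85 in PAT3. The causes were not tested. No paired analysis was possible because the replicate numbers follow accession order and the labels name no litter or batch. Counting error at the median depth was 3.74% to 4.18% for Atg16l1 and 2.35% to 3.01% for Irgm1.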
